A study of Mus musculus with 3 samples.

Results

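The genes described here encode the initiation and elongation factors of translation and the enzymes and binding proteins that act on them. Members were all genes whose symbol starts with Eif or Eef, without the sex-linked pair Eif2s3x and Eif2s3y, and with a probe set assigned to that gene alone. This gave 51 genes, read by 115 probe sets, of 12394 genes and 22690 probe sets in all. RNA levels came from 3 samples of normal mouse muscle, called muscle 1, muscle 2 and muscle 3, with 1 array each. They came from littermate controls, 3 to 6 weeks old, which stood as normal tissue beside tumours that arose from Pax7+ satellite cells. The labels give no alleles for these littermates, and do not say whether they received the 4-hydroxytamoxifen that was injected into the hindlimb of tumour-bearing mice. Tumour arrays were not analysed here, so there is 1 group and no contrast between conditions. The labels give no strain, name no muscle and do not say whether the samples came from separate animals.

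Translation starts when the small ribosomal subunit, carrying initiator tRNA brought by eIF2, is recruited to the capped end of an mRNA by the eIF4 factors and the eIF3 complex and scans to a start codon. In elongation, eEF1A delivers each aminoacyl-tRNA and eEF2 moves the ribosome along by a codon. Adult muscle fibres, heart and neurons of the mouse are known for their use of Eef1a2 as the eEF1A isoform, whereas Eef1a1 is the form of most other cells and gives way to Eef1a2 in muscle after birth.

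Levels are log2 RMA values, in which a difference of 1 is a 2-fold difference, and each mean is given with its SD over the 3 muscles (n = 3). Where a gene had several probe sets, the one of highest mean stood for it. A gene is called above background where it exceeds a level that 95% of 66 probe sets for genes typical of other organs did not reach. This level was 5.97 for muscle 1, 6.24 for muscle 2 and 6.14 for muscle 3. Probe sets bind with different strength, so the levels of different genes are not ranked. The 10 skeletal muscle markers examined all exceeded background throughout, with Acta1 at 13.62 ± 0.034 and Ckm at 13.61 ± 0.014. Of the satellite cell markers, Pax7 was below it at 5.31 ± 0.19 and Myf5 above it at 6.56 ± 0.13.

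The sequences upstream of Eef1a1 and Eef1a2 are shown because this pair of isoforms is the main point of the family in muscle. They are the 250 bases before each annotated start, from RefSeq on GRCm38.p6, 5′ to 3′ on the strand of the gene. Eef1a1 lies on the minus strand, chr9:78481725-78481974, and Eef1a2 on the minus strand, chr2:181157016-181157265. Capitals mark the GC box GGGCGG on either strand.
Eef1a1: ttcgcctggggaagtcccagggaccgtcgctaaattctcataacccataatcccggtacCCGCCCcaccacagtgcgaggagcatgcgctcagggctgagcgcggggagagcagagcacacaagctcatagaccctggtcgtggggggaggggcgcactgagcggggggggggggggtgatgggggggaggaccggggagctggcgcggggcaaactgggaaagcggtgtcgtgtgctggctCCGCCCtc
Eef1a2: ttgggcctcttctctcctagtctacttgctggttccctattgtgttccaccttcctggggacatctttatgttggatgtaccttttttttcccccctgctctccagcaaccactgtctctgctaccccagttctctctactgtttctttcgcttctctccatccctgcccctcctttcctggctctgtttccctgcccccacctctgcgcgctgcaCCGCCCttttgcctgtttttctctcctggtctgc
The Eef1a1 window held 2 GC boxes and was 68.0% G and C, and the Eef1a2 window held 1 and was 54.0% G and C. Neither window held CCAAT or TATAAA on either strand. The searched motifs therefore did not overlap in either window. The annotated start of Eef1a1 seems to lie upstream of a TATA-like sequence, so its window may not be the core promoter. Of 41 members with a sequence in the table, 29 (70.7%) held GGGCGG, 14 (34.1%) held CCAAT and 3 (7.32%) held TATAAA in the 250 bases. Over 5622 genes above background in every muscle the shares were 66.8%, 40.7% and 8.20%, and over all 27025 genes with a sequence they were 35.4%, 37.5% and 14.3%. The members thus had GC boxes about as often as other genes above background in this tissue. A match is a string of letters, and binding there was not measured.

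Almost the whole family was above background in muscle. Of the 51 members, 47 exceeded background in all 3 muscles and 3 in none, and Eefsec exceeded it in 1. Over all 12394 genes, 55.4% were above background in every muscle and 39.1% in none. The 35 measured genes of a list of other translation genes gave 32 and 2. The plot of levels by gene shows most members well clear of background, with Eefsec crossing it and Eif2ak2 just below it.

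**Figure D1:**
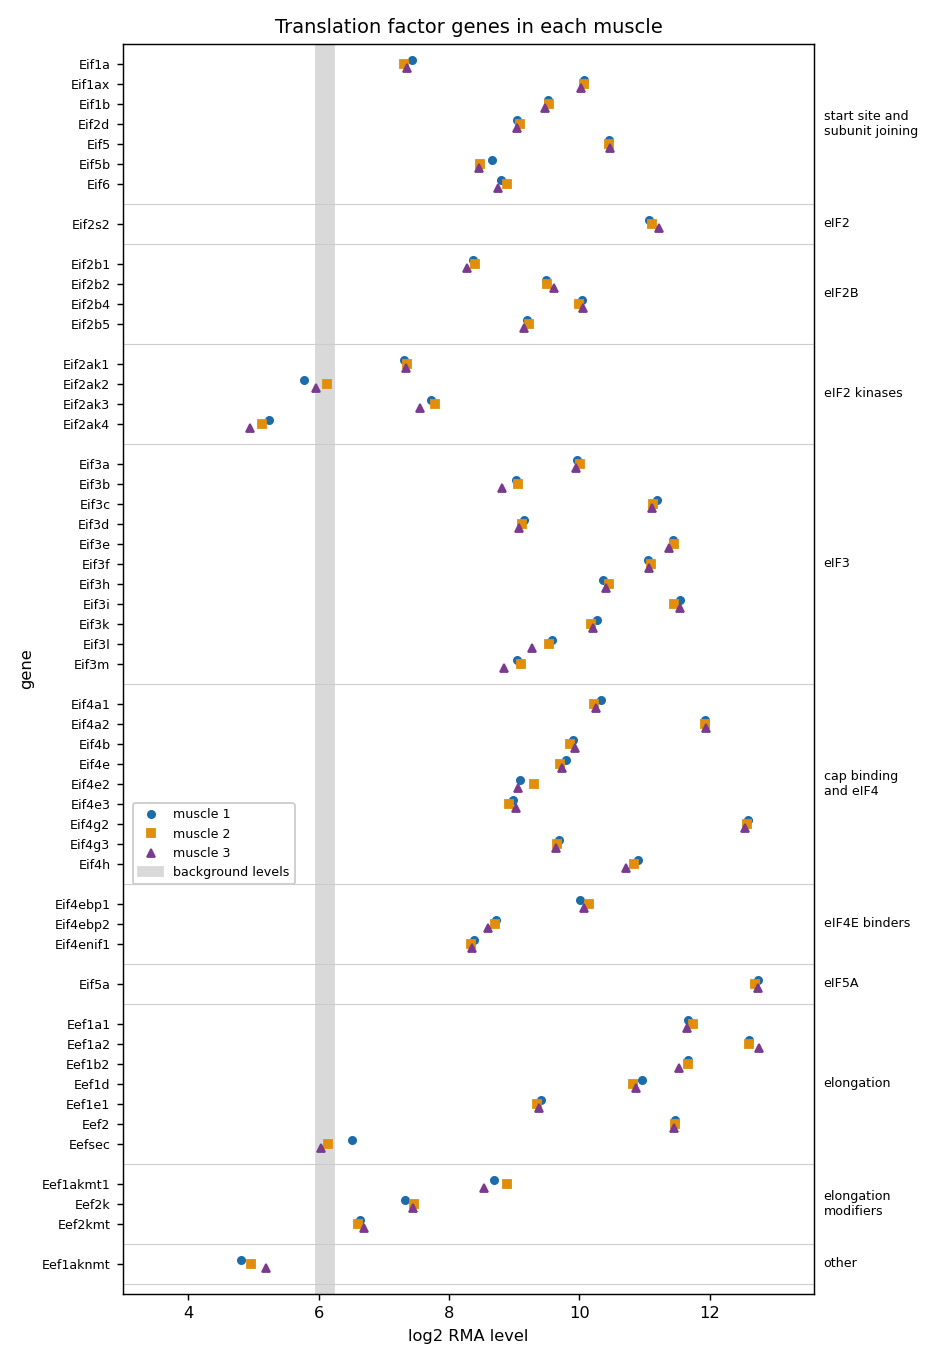
Log2 RMA level (x axis) of each of the 51 translation factor genes (y axis, grouped by role) in muscle 1 (circles), muscle 2 (squares) and muscle 3 (triangles). The grey band spans the background levels of the 3 muscles, 5.97 to 6.24, and 47 genes lie above it in every muscle.

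Both eEF1A isoforms were above background. Eef1a2 (probe set 1418062_at) had levels of 12.60, 12.60 and 12.75 in muscles 1, 2 and 3, or 12.65 ± 0.086. Eef1a1 (probe set 1424635_at) was at 11.67, 11.74 and 11.65 in muscles 1, 2 and 3, or 11.69 ± 0.046. Each isoform was read by a single probe set, so their log2 levels do not give the proportion of the transcripts, and binding of each probe set to the other isoform or to related copies was not tested. Eef1a2 stood highest in muscle 3, by 0.15 over the mean of the others, while muscles 1 and 2 were alike. Eef1a1 was highest in muscle 2, by 0.077, and lowest in muscle 3, by -0.055. Whole tissue was profiled, so fewer cells of a type and less RNA per cell cannot be told apart. Of 8 markers of fibroblasts, endothelium, adipocytes and macrophages, all were above background in every muscle, 5 were highest in muscle 2, 3 in muscle 1 and 0 in muscle 3. Of all 7551 genes above background in at least 1 muscle, 3102 were highest in muscle 1, 2629 in muscle 2 and 1820 in muscle 3. The share of all genes higher in muscle 3 than the mean of the others was 36.6%, and 48.4% after quantile normalization. No direction is therefore drawn from the marker counts. The summed linear levels of the markers were 15325, 15547 and 14685 in muscles 1, 2 and 3, a sum over different probe sets to which Col3a1 contributed most. Their part in the level of Eef1a1 was not tested.

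Of the genes for the exchange complex that reloads eEF1A with GTP, Eef1b2 and Eef1d were above background in every muscle. Eef1g was not analysed here. Eef1b2 was at 11.67 in both muscle 1 and muscle 2 and at 11.53 in muscle 3. Eef1d was at 10.96, 10.82 and 10.86 in muscles 1, 2 and 3 by its highest probe set. Eef1e1, a component of the complex of aminoacyl-tRNA synthetases, was at 9.41, 9.34 and 9.38. By these probe sets none of Eef1b2, Eef1d and Eef1e1 spanned more than 0.14 between muscles. Another Eef1d probe set above background in every muscle, 1439439_x_at, was at 9.93, 10.07 and 9.85, a range of 0.22. The translocase Eef2 was the steadiest elongation factor, at 11.47, 11.48 and 11.46 in muscles 1, 2 and 3, a range of 0.017. Eefsec, which brings selenocysteine tRNA to the ribosome, had levels of 6.52, 6.15 and 6.03 in muscles 1, 2 and 3. It exceeded background in muscle 1 alone, and its range of 0.48 was the widest among the 48 members above background in at least 1 muscle. Eefsec counts among the 48 only through its highest muscle, and its levels lie near background, so no result is drawn from this range.

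Enzymes that modify the elongation factors were above background with a single exception. Eef2k, the kinase that phosphorylates and inhibits eEF2, was at 7.33, 7.47 and 7.44 in muscles 1, 2 and 3. Eef2kmt, which methylates eEF2, was at 6.63, 6.61 and 6.70. The lysine methyltransferase of eEF1A Eef1akmt1 was at 8.69, 8.89 and 8.53, highest in muscle 2. Eef1aknmt, which methylates eEF1A at its N terminus and at a lysine, was below background at 4.81, 4.97 and 5.20. Eif5a, the factor that carries hypusine and helps ribosomes through difficult peptide bonds, was at 12.74, 12.69 and 12.74.

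All 11 measured subunits of eIF3, the scaffold that holds the small subunit to the mRNA and the other factors, were above background in every muscle. Their means ran from 8.97 for Eif3b to 11.51 for Eif3i. Among the 11, the widest range was that of Eif3l, at 9.57, 9.54 and 9.28 in muscles 1, 2 and 3. Eif3b was at 9.03, 9.06 and 8.81, and Eif3m at 9.04, 9.10 and 8.85. In all of these muscle 3 was lowest, by -0.28 for Eif3l, -0.24 for Eif3b and -0.22 for Eif3m against the mean of the others. By the probe set of highest mean, the remaining subunits Eif3a, Eif3c, Eif3d, Eif3e, Eif3f, Eif3h, Eif3i and Eif3k each spanned 0.101 or less. Other probe sets above background in every muscle spanned more, 0.62 for 1415859_at of Eif3c and 0.13 for 1460432_a_at of Eif3e. Over the 11 subunits 2 were higher in muscle 3 than in the mean of the others, against 36.6% of all genes. No direction is drawn from this count, since for the members as a whole the count higher in muscle 3 changed with quantile normalization, to 25 of 48 from 14.

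Of the measured genes of the cap-binding machinery, 9 of 9 were above background in every muscle, against 55.4% of all genes. The scaffold gene Eif4g1 was not among the genes analysed. Eif4e, which binds the cap, was at 9.79, 9.71 and 9.74 in muscles 1, 2 and 3. Its relatives Eif4e2 and Eif4e3 were at 9.16 ± 0.13 and 8.98 ± 0.056. The other Eif4e3 probe set, 1417978_at, was at 8.21, 8.34 and 8.66 in muscles 1, 2 and 3, a range of 0.45. By its highest probe set Eif4e2 was highest in muscle 2, at 9.31, against 9.09 in muscle 1 and 9.07 in muscle 3. Another Eif4e2 probe set above background in every muscle, 1421985_a_at, was highest in muscle 3. It was at 7.96, 8.11 and 8.13 in muscles 1, 2 and 3. The RNA helicases Eif4a1 and Eif4a2 were at 10.27 ± 0.060 and 11.93 ± 0.012. Their cofactors Eif4b and Eif4h were at 9.90 ± 0.040 and 10.82 ± 0.097, with Eif4h at 10.91, 10.84 and 10.72 in muscles 1, 2 and 3. The scaffold gene Eif4g3 was at 9.66 ± 0.022. Eif4g2, a relative of the scaffold that does not bind Eif4e, was at 12.58, 12.57 and 12.54. The repressors that hold Eif4e until mTOR phosphorylates them were above background as well. Eif4ebp1 was at 10.01, 10.16 and 10.08 in muscles 1, 2 and 3, and Eif4ebp2 at 8.72, 8.71 and 8.60. Eif4enif1, which moves Eif4e into the nucleus, was at 8.36 ± 0.023.

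Factors of start codon choice and subunit joining were all above background, 7 of 7. The GTPase activator Eif5 had the smallest range of any member by the probe set of highest mean, 0.012, at 10.46 ± 0.0062. Another of its probe sets, 1454664_a_at, was at 9.29, 9.13 and 8.91 in muscles 1, 2 and 3, a range of 0.38, with the lowest level in muscle 3. Eif5b, the GTPase that joins the ribosomal subunits, was at 8.66, 8.48 and 8.46 in muscles 1, 2 and 3. Eif6, which keeps the large subunit from joining early, was at 8.81 ± 0.072. The scanning factors Eif1ax and Eif1a were at 10.06 ± 0.023 and 7.37 ± 0.064, and Eif1b, a close relative of Eif1, at 9.51 ± 0.030. Eif2d, which can place initiator tRNA without eIF2, was at 9.04, 9.10 and 9.04 in muscles 1, 2 and 3.

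Among genes of the eIF2 branch, Eif2s2, the beta subunit of eIF2, was at 11.07, 11.12 and 11.23 in muscles 1, 2 and 3. This was by its highest probe set, and 1417713_at was likewise highest in muscle 3, departing by 0.12. Its other probe sets above background in every muscle, 1456617_a_at, 1448820_a_at and 1448819_at, departed there by -0.049, -0.12 and -0.042. All 4 measured subunits of eIF2B, the exchange factor of eIF2, were above background. Eif2b1 was at 8.35 ± 0.058, Eif2b2 at 9.54 ± 0.068, Eif2b4 at 10.03 ± 0.033 and the catalytic subunit Eif2b5 at 9.19 ± 0.044. Of the 4 kinases that phosphorylate eIF2 under stress, 2 were above background in every muscle and 2 in none, shares near the 55.4% and 39.1% of all genes. With probe sets averaged all 4 were below it, and with background at the 90th percentile Eif2ak2 was above it. Eif2ak3, the kinase of endoplasmic reticulum stress known as PERK, was at 7.72, 7.78 and 7.55. The haem-regulated kinase Eif2ak1 was at 7.31, 7.36 and 7.33. Eif2ak2, the kinase activated by double-stranded RNA known as PKR, was at 5.77, 6.14 and 5.96, below background in each muscle. Eif2ak4, the kinase of amino acid shortage known as GCN2, was at 5.23, 5.14 and 4.94. A level below background does not show that a gene was silent.

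Other translation genes, listed by pathway, were mostly above background too, 32 of 35, and none spanned 2-fold. The kinase gene Mtor was at 7.95 ± 0.010 and its partner Mlst8 at 6.38 ± 0.11. Of the upstream regulators, Tsc1 and Tsc2 were at 7.52 ± 0.12 and 7.68 ± 0.068, and the activating GTPase Rheb at 10.60 ± 0.015. Rictor, a component of the second mTOR complex, was below background at 3.00 ± 0.062. Rps6kb2, a kinase of ribosomal protein S6, was at 6.41, 6.15 and 6.11 and exceeded background in muscle 1 alone. Rps6 itself was at 8.21 ± 0.045, and Mknk1, a kinase of Eif4e, at 7.66 ± 0.20. The release factor gene Gspt2, named after its values were seen, was the other gene below background, at 4.57 ± 0.25.

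The muscles differed little in these genes. Over the 48 members above background in at least 1 muscle the median SD was 0.049, a factor of 1.03, against 0.081 or a factor of 1.06 over all 7551 such genes. Spread falls as level rises, and many members were bright. Within 20 bins of mean level, 22 of the 48 members had an SD above the median of their bin, 45.8%, against 49.9% of all genes. At like level the members were therefore spread about as widely as other genes. A range of at least 2-fold occurred in 0 of 48 members and in 0.305% of all genes. At a limit of 1.5-fold the count was again 0 of 48, against 2.54% of all genes. The plot of spread against level shows the members within the cloud of other genes.

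**Figure D2:**
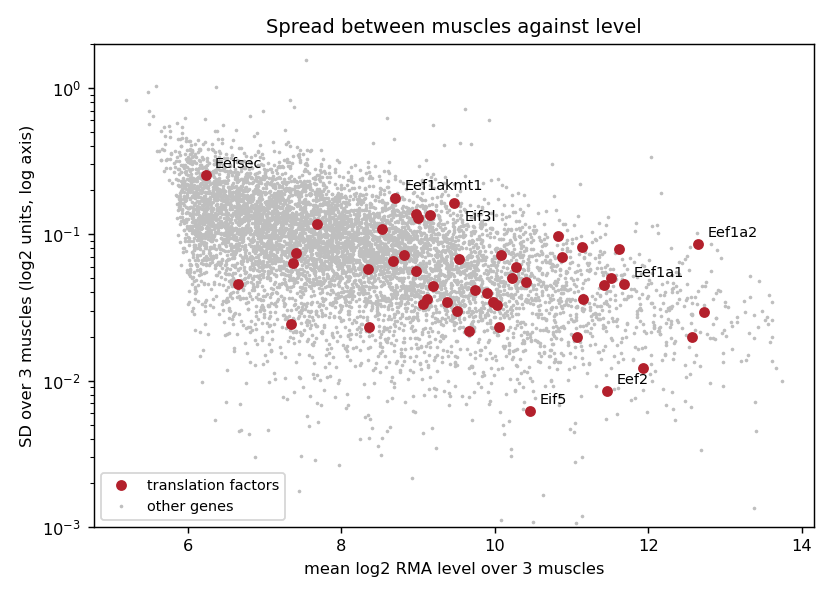
SD over the 3 muscles (y axis, log2 units on a log axis) against mean log2 RMA level (x axis) for the 7551 genes above background in at least 1 muscle, with 48 translation factors as large points. By the probe set of highest mean, Eif5 and Eef2 have the smallest SDs among the members. Eefsec, near background and above it in muscle 1 alone, has the largest, 0.25.

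The variance of each gene was set against limma's fitted prior by an F test. With Benjamini-Hochberg adjustment over all 7551 genes, 0 of 48 members were called and 0.0795% of all genes. At an unadjusted p under 0.05 there were 3 members, 6.25%, against 4.95% of all genes. These were Eef1a2, Eif3l and Eef1akmt1, with F test p-values of 0.015, 0.026 and 0.042 before and 0.86, 0.95 and 0.97 after adjustment. In each of the 3, muscle 3 was at an extreme, highest for Eef1a2 and lowest for Eif3l and Eef1akmt1. This is not particular to them, since muscle 3 was highest in 1820 and lowest in 3583 of all 7551 genes. A p-value that misses the threshold does not show that the muscles were alike.

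The departure of a gene is how far its level in a muscle lay above or below the average of the others, and the departures of the members were close to those of all genes. In muscle 1, 30 of 48 members were higher, against 61.2% of all genes, with a median departure of 0.021 for the members and 0.028 for all. In muscle 2 the count was 25 of 48, against 53.6%, with medians of 0.0072 and 0.010. In muscle 3 it was 14 of 48, against 36.6%, with medians of -0.026 and -0.036. After quantile normalization of the 3 columns the muscle 3 count was 25 of 48, and 48.4% over all genes, so no direction is drawn from it. The muscle farthest from the others was muscle 1 in 13 of 48 members, against 29.5% of all genes. It was muscle 2 in 16, against 30.8%, and muscle 3 in 19, against 39.7%. The control probe sets of 18S ribosomal RNA were highest in muscle 3, the 5′ one with 10.96, 11.23 and 11.69 in muscles 1, 2 and 3, and the 3′ minus 5′ difference of Gapdh was 0.33, 0.43 and 0.37. That of Actb was 0.76, 0.77 and 0.61 in muscles 1, 2 and 3, lowest in muscle 3. The part of these controls in the departures was not tested.

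**Figure D3:**
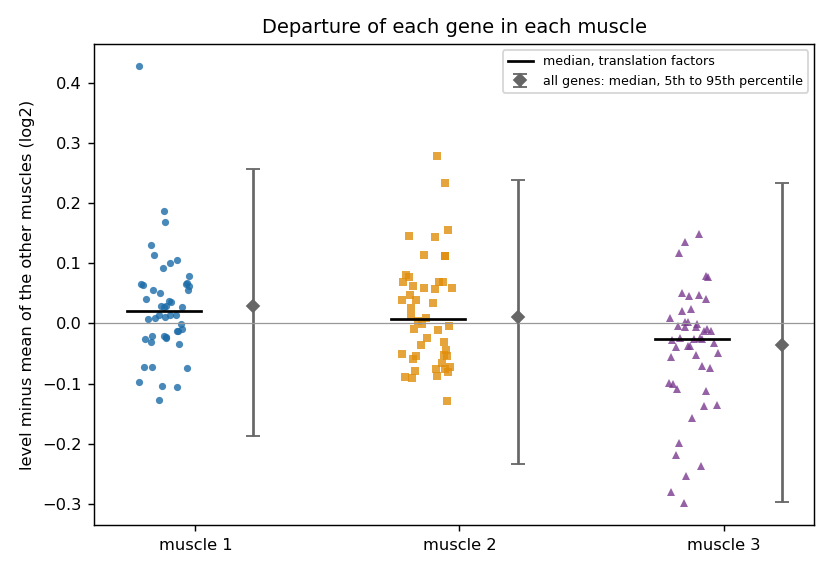
Departure of each translation factor gene (points) in each muscle (x axis), relative to the average of the other muscles in log2 units (y axis), for the 48 genes above background in at least 1 muscle. Black lines are medians of the members, and diamonds with bars are the median and the 5th to 95th percentile of all 7551 genes. The medians of the members, 0.021, 0.0072 and -0.026, lie close to those of all genes.

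Different probe sets of a gene did not always give the same picture. Of the 115 member probe sets, 87 were above background in every muscle, 23 in none and 5 in some. Over all 20393 probe sets with 1 gene, 48.2% were above in every muscle and 45.9% in none. A gene with several probe sets and at least 1 of them above background in every muscle also had another below it in every muscle in 13 of 28 members, against 55.0% of all such genes. Dim probe sets beside bright ones were thus no more frequent here than elsewhere.

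Some of these gaps were wide. For Eif3h the highest probe set was at 10.36, 10.45 and 10.41 in muscles 1, 2 and 3, while 2 others had means of 2.47 and 2.43. Eif3e had 3 probe sets with means from 11.20 to 11.42, its highest at 11.43, 11.46 and 11.37, and 1 more at 4.28. Eif4g2 had 3 with means from 11.00 to 12.56 and 1 more at 3.80. Eif3h thus rested on 1 probe set, and Eif3e and Eif4g2 on 3 each. Eif2s2 was supported by 5 probe sets with means from 10.07 to 11.14 and had 1 below background, at 4.17. Eif2d had 3 from 7.50 to 9.06 and 1 at 3.92. Eif3l and Eif3m each rested on 1 probe set, the others being at 4.14 and 3.72 for Eif3l and at 4.33 for Eif3m. The same held for the kinases, with the other probe sets at 5.72 and 3.79 for Eif2ak1 and at 3.47 and 3.34 for Eif2ak3.

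The remaining genes of this kind had 2 probe sets above background in every muscle. Eif3a had them at 9.97 and 9.94, with the highest at 9.96, 10.01 and 9.95 in muscles 1, 2 and 3. Eif4e had them at 9.75 and 9.47, and another at 5.97, 6.25 and 5.93 in muscles 1, 2 and 3, above background in muscles 1 and 2. Eif4e2 had 2 others below background, with means of 5.58 and 5.52, and Eif4ebp1 had 1, with a mean of 5.42. The remaining probe set of Eef1d was at 6.13, 5.49 and 5.78, above background in muscle 1 alone. These genes were above background by either of their bright probe sets.

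**Figure D4:**
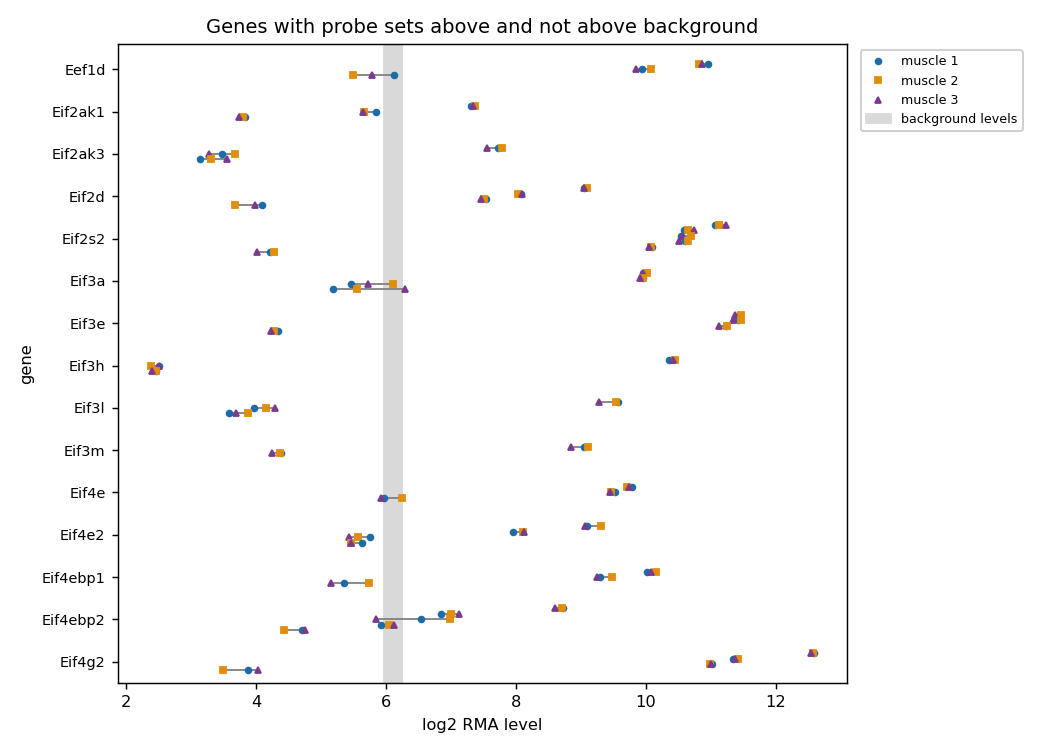
Log2 RMA level (x axis) of every probe set of the 15 translation factor genes (y axis) that had at least 1 probe set above background in every muscle and another that was not. Each line joins the lowest and highest muscle of a probe set, symbols give the muscles, and the grey band spans the background levels. Eif3h has a bright probe set with a mean of 10.41 beside dim ones at 2.47 and 2.43, and Eif4g2 has means from 11.00 to 12.56 beside 3.80.

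The probe sets that varied most between muscles were not those that gave the gene level. No result is drawn from this, since the gene level is the probe set of highest mean and spread falls as level rises. Of 92 member probe sets above background in at least 1 muscle, 2 spanned 2-fold, against 70 of all 11038 such probe sets (0.634%). No result is drawn from this count, since each of the 2 crossed background between muscles. For Eif4ebp2 it was 1417084_at, below background in muscle 3, at 6.53, 6.99 and 5.84 in muscles 1, 2 and 3, a range of 1.15. Its other probe sets above background, 1436158_at and 1437733_at, spanned 0.12 and 0.27. For Eif3a it was 1416661_at, at 5.18, 5.55 and 6.28, above background in muscle 3 alone, while its brightest probe sets spanned 0.065 and 0.051. The probe set 1434605_at of Eif5b was at 6.57, 6.50 and 7.39, highest in muscle 3 by 0.86, where the other Eif5b probe sets departed by -0.11 and -0.016. The probe set 1415859_at of Eif3c was at 8.13, 8.19 and 7.57, lowest in muscle 3 by -0.59, while the widest range among the other 3 Eif3c probe sets was 0.13. With each probe set tested on its own, the F test on limma's prior called 0 of 92 member probe sets and 0.145% of all. At an unadjusted p under 0.05 in that test there were 7 of 92, against 4.98% of all.

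Where 2 or more probe sets of a member were above background in every muscle, they could be set against each other for direction. Of 23 such genes, all probe sets above background in every muscle departed the same way in muscle 1 for 6, in muscle 2 for 12 and in muscle 3 for 10. Eif3e, Eif4e, Eif4ebp1 and Eif4h did so in all 3 muscles. The same counts were not made over all genes, so neither agreement nor disagreement particular to the members is read from them. The Eif4e probe set 1450909_at, above background in muscles 1 and 2, departed by -0.11 and 0.30 there, opposite to the bright ones. The 3 bright probe sets of Eif3e were all lowest in muscle 3. For Eef1akmt1, the only one of the 3 members at an unadjusted p under 0.05 with several bright probe sets, 3 of 4 were lowest in muscle 3, and 1435269_at, at 6.63, 6.62 and 6.78 in muscles 1, 2 and 3, was highest there.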

How the data were processed

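RNA of 3 normal muscle samples was measured on a 3′ expression array, after labelling of 500 ng with biotin. The deposited values are log2 levels, and per the submitters' processing notes the authors used RMA, which summarises the probes of a probe set. Neither its version nor the set of arrays it was run on is given in the sources used here. Because RMA commonly equalises the distributions of arrays, a shift shared by most genes may be hidden. Probe-level signals were not used, so saturation was not tested.

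Genes were named from GEO's platform annotation, with 1 gene for 20393 probe sets, several for 691 and none for 1606. All 115 member probe sets matched RefSeq (GRCm38.p6) by Entrez number, and 0 symbols differed. Probe sets with several symbols were left out, among them 6 with an Eif or Eef symbol, and genes such as Eef1g, Eif4a3, Eif3j1 and Eif3j2 were not analysed here. The background list had 48 measured genes, of which 2 were above background in every muscle. Protein sequences were not used here.

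With 1 group, no contrast was tested. For genes above background in at least 1 muscle, limma 3.58.1 in R 4.3.3 fitted a robust prior variance that follows level. Each variance (2 degrees of freedom) was compared with this prior by an F test, one-sided, adjusted by Benjamini-Hochberg at 0.05. That F test was computed outside limma's own routines. The test was also run on data simulated from its own fitted prior, and no support for the counts above is drawn from that check. Whether the samples are separate animals is not in the labels, so SDs and p-values reflect just how these samples differ, and that may be technical. The number of arrays limits the precision. Values per muscle were given for elongation factors, the 10 detected members of widest range, any member called or spanning 2-fold, members above background in some muscles, and members with probe sets on both sides of background. The plan gave other members by mean and SD or by group ranges, and some, such as Eif5a and Eef2kmt, were nonetheless given in each muscle. Of the other translation genes, the first 12 as listed could be named. The members, lists and tests were chosen with earlier results of these data known. Alternatives changed scaling, gene level, background, filter, limma setting and samples. Python 3.11.15, numpy 2.4.6, pandas 2.3.3 and matplotlib 3.10.9 served for the rest.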

Additional observations from a re-analysis of the deposited data

How the results depend on the processing

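The count of 47 members above background in every muscle was 47 after quantile normalization and median centring, 43 with probe sets averaged, 46 with the background at the 99th percentile, and 32 of the 38 members left without probe sets marked _s_at, _x_at or _a_at. The 3 members below background became 7 with probe sets averaged (Eif2ak1, Eif2ak3, Eif3h and Eif3l were added), 5 without the marked probe sets (Eif2d, Eif3e and Eif4e2 were added, and Eif2ak4 had no probe set left) and 5 at the 99th percentile (Eef2kmt and Eefsec were added). With the background at the 90th percentile, an alternative chosen after seeing the data, 49 members were above it in every muscle and 2 in none, with Eif2ak2 and Eefsec the 2 that joined them. The 22 members with an SD above the median of their bin became 14 of 33 without the marked probe sets, where 16 of 33 were higher in muscle 1 in place of 30 of 48. The 14 members higher in muscle 3 became 25 after quantile normalization, and the median departure there became 0.0063. Median departures also changed sign to -0.011 in muscle 2 after quantile normalization and to -0.00090 in muscle 1 without the marked probe sets, both smaller than the median SD. The causes were not tested. Leaving out each muscle in turn gave 47 members above background each time, 3 to 4 below it and a median SD of 0.037 to 0.045. Departures were not recomputed without a muscle. Under every alternative run, 0 members spanned 2-fold or were called by the F test on limma's prior. In that test 0 to 5 genes were at an unadjusted p under 0.05 (7 probe sets where each probe set was tested). The adjusted F test p of Eef1a2 ran from 0.604 to 0.999. The range of Eef1a2, 0.15, was 0.0011 without muscle 3, and that of Eef1a1, 0.088, was 0.023 without muscle 2. No paired analysis was possible because there is a single group.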
